A study of Mus musculus with 24 samples.

Results

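The clustered protocadherins of the mouse are 3 tandem gene arrays, alpha, beta and gamma, that lie next to each other on chromosome 18. They were picked out of the expression tables by gene symbol alone, as every symbol that names a numbered alpha, beta, gamma A or gamma B gene or a C-type gene, and 58 of the 25135 genes listed matched. These are 12 alpha genes (Pcdha1 to Pcdha12), 22 beta genes (Pcdhb1 to Pcdhb22), 12 gamma A and 7 gamma B genes, and the 5 C-type genes Pcdhac1, Pcdhac2, Pcdhgc3, Pcdhgc4 and Pcdhgc5, of which the former 2 belong to the alpha array and the others to the gamma array. The libraries come from a study of KDM6B, a demethylase of the repressive histone mark H3K27me3, in the mouse cortex. SUN1-GFP-tagged nuclei were sorted from the cortex at postnatal day 1 (P1) and day 30 (P30), and their total RNA was sequenced in 6 libraries per genotype and age, 24 in all. WT mice were Kdm6b wt/wt and Kdm6b-cKO mice were Kdm6b f/f with Emx1-Cre, on a congenic C57BL/6 background that also carried the SUN1-GFP reporter in the groups of both genotypes. Emx1-Cre is active in progenitors of the dorsal telencephalon, so the tag and the deletion mark the glutamatergic neurons, astrocytes and part of the oligodendrocytes that descend from them, and not 1 cell type.

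Protocadherins of these arrays are cadherin-like adhesion molecules of the neuronal surface. Each alpha, gamma A, gamma B or C-type gene has its own promoter and a large variable exon that encodes the extracellular, transmembrane and proximal cytoplasmic parts, and this exon is spliced to a set of constant exons that all genes of the array share. Beta genes have a single coding exon and no shared constant region. A neuron expresses a few alpha, beta, gamma A and gamma B genes from a stochastic choice of promoters, in which CTCF, cohesin and DNA methylation take part, while C-type genes are expressed more uniformly. The proteins bind identical partners on other membranes and are known for self-avoidance of dendrites, for neuronal survival and, in Pcdhac2 and Pcdhgc4, for axon tiling and interneuron survival.

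The shared exons limit what a value of 1 alpha or gamma gene means. Cuffdiff, with which the authors computed the values, handled the arrays as a single interval, listed as chr18:37089938-38001526 in the mouse build mm9, that holds 63 genes, namely the 58 members, the read-through models Gm37013, Gm38666 and Gm38667, and the genes Slc25a2 and Taf7. In the transcripts available for the same build, 3 alpha transcripts, all listed under Pcdha11, shared 52.4 to 54.1% of their 50-base words with another of these. The 10 gamma transcripts, all listed under Pcdhgc5, shared 41.2 to 96.7% with another of the 10. The 21 beta genes compared shared 0 to 12.0% with another beta gene, with a median of 3.84%. Reads from constant exons are therefore divided among alpha or gamma genes by the estimate of Cuffdiff, and single alpha and gamma values are uncertain, whereas beta values rest mostly on reads of the gene itself. In beta genes, all 465 values above 0 were whole numbers of reads within 0.1 read. The size of a step and the fragment length were fitted in each library to make most of these values whole. This count is therefore no independent check.

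FPKM values are fragments relative to the length of the transcript and to the mapped fragments of the library, so levels of different genes are on 1 scale per length. The height of a step of 1 read gave an effective depth, after the authors' scaling, of 803000 to 3907000 reads in the WT libraries and 191000 to 2854000 in the Kdm6b-cKO libraries at P1, and of 5118000 to 8303000 and 1938000 to 8038000 at P30. At P1, Kdm6b-cKO libraries 0, 1 and 5 (343000, 835000 and 191000 reads) and WT library 4 (803000 reads) were under 1000000. WT libraries 2 to 5 and Kdm6b-cKO library 5 at P1 had 397 to 794 olfactory receptor genes above 0, against 2 to 22 in the other 7. At P30, 45S pre-ribosomal RNA, the unprocessed ribosomal transcript, was at 175 to 450 FPKM in WT library 0 and Kdm6b-cKO libraries 0, 1 and 5, and at 1629 to 25878 FPKM in the other 8. At P1, 45S RNA was at 259 to 476 FPKM in WT. Kdm6b-cKO libraries 0 to 5 at P1 had 3423, 3239, 28.7, 267, 221 and 899 FPKM of it. Kdm6b itself, given as a check of the labels, overlapped between genotypes at P1 (WT 24.9 to 51.0, Kdm6b-cKO 15.0 to 38.4 FPKM; log2 fold change -0.41, adjusted p = 0.534) and at P30 (16.9 to 26.4 and 17.5 to 28.1 FPKM; 0.11, adjusted p = 0.828), and a gene-level value does not show whether floxed exons were removed. By qRT-PCR on sorted SUN1-GFP nuclei, the study reported a strong reduction of Kdm6b mRNA in Kdm6b-cKO. The ages were normalized separately, so levels of different ages are set side by side without a test.

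In WT nuclei at P1, Pcdhgc4 had the highest level of the arrays. Its 6 WT libraries ranged from 22.0 to 40.6 FPKM, with a median of 28.7 FPKM. Pcdha8 came next with 9.03 to 20.1 FPKM (median 15.3), followed by Pcdhgc3 with a median of 12.9, Pcdhb7 with 12.6, Pcdhga8 with 10.6 and Pcdhga11 with 9.56 FPKM. The libraries of Pcdhgc4 and Pcdha8 did not overlap, while each of the later neighbours in this order overlapped with the next. The lowest WT median of the 58 was 0.681 FPKM (Pcdhb1), and the median over the 58 was 2.74 FPKM.

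At P30 the order in WT had changed at its top. Pcdha8 led with a WT median of 6.71 FPKM, followed by Pcdhb21 with 4.97, Pcdhgc4 with 4.77, Pcdhga7 with 4.03 and Pcdhga2 with 3.68 FPKM, and the libraries of each of these overlapped with those of the next. Pcdhgc3 had a WT median of 0.227 FPKM at P30, beside 12.9 FPKM at P1. For 57 of the 58 members the WT median at P30 lay below that at P1, and the median over the members was 0.767 FPKM, beside 2.74 FPKM at P1. Over the 12644 genes tested at both ages, 58.1% had a lower WT median at P30. Across the 58 genes, which share their libraries, Spearman's rho between the WT medians of the ages was 0.61. Along the beta array, gene number and WT level went together with a rho of 0.38 at P1 and 0.61 at P30 over the 22 genes, as the genes with low numbers were mostly low and Pcdhb20 and Pcdhb21 high.

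**Figure D1:**
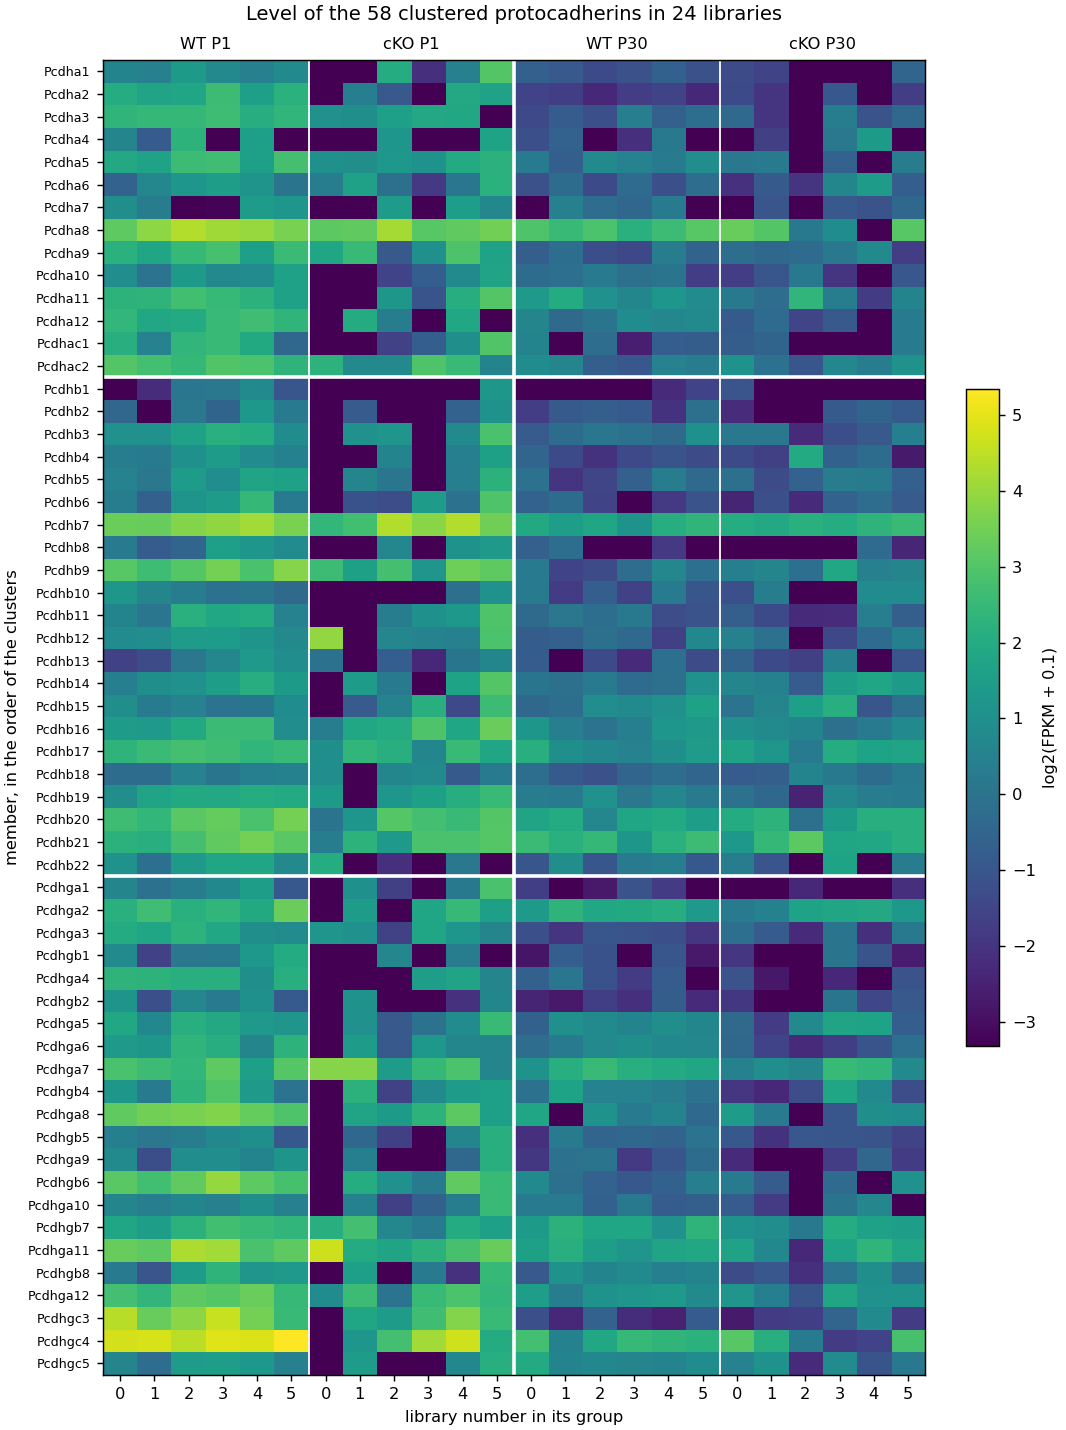
Level of each member (rows, in the order of the arrays, with alpha above, beta in the middle and gamma below) in each library (columns), coloured by log2(FPKM + 0.1), with the darkest colour for a value of 0. WT libraries at P1 are filled almost without gaps, while Kdm6b-cKO library 0 at P1 lists 22 of 58 members above 0 and Kdm6b-cKO library 2 at P30 lists 38.

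Many members that every WT library listed at P1 were at 0 in part of the Kdm6b-cKO libraries, as the map of all members by library shows. At P1 the WT libraries listed 57 or 58 of the 58 members above 0, and Kdm6b-cKO libraries 0 to 5 listed 22, 41, 49, 39, 56 and 54. WT library 4 listed all 58 at 803000 effective reads, and Kdm6b-cKO library 3 listed 39 at 2854000. Among all 16250 genes tested at P1, the share above 0 was 90.1 to 97.2% in WT libraries and 71.6 to 93.5% in Kdm6b-cKO libraries. At P30 the WT libraries listed 53 to 58 members, and Kdm6b-cKO libraries 38 to 56, with the 2 lowest numbers in libraries 2 and 4 (38 and 45), which also had 95.8 and 95.9% of all tested genes above 0, beside at least 97.0% in each of the other 10. A value of 0 in these tables is no proof of absence, and because of it levels are given as the lowest, median and highest library and no SD.

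At P1 most members had a lower level in Kdm6b-cKO than in WT nuclei, and none passed the test. Genes were tested where their level averaged 1 FPKM or more over the 12 libraries, as 53 members did, and 52 of these had a negative log2 fold change (Kdm6b-cKO against WT, on the log2(FPKM + 0.1) scale; 63.2% of all genes tested did), with a median of -1.27 beside -0.25 over all genes tested. The size of this median depended on the pseudocount. It was -0.58 with a pseudocount of 1 (all genes -0.10) and -2.29 with 0.01 (all genes -0.33). Among genes averaging at least 5 FPKM, 13 members had a median of -0.87 (all genes -0.05). Across all 58 members, the Kdm6b-cKO median lay below the WT median in 56 and above it in 2 (Pcdhb16 and Pcdhb18), while 56.6% of all genes tested had a lower Kdm6b-cKO median. At an adjusted p under 0.05 and more than 2-fold, 0 of 53 members were called, as were 0 of all 16250 genes (0%). In the same limma fit, 16 of 53 members were lower at an unadjusted p under 0.05 and 0 were higher, where the background over all genes was 7.77% lower and 6.7% higher. The smallest adjusted p of a member was 0.193 (Pcdha12). Of the 53 members, 6 passed the filter on low values only through the WT libraries and none only through the Kdm6b-cKO libraries, so these counts describe the fit and are no independent evidence.

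**Figure D2:**
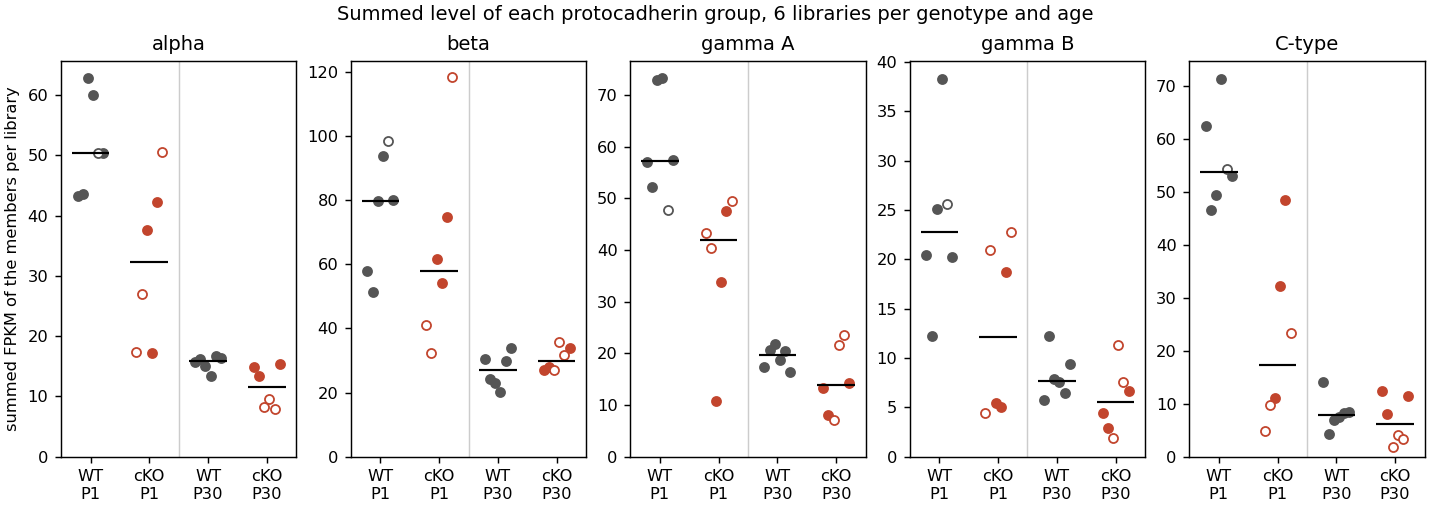
Summed FPKM of the members of each group per library (points), with the median of each genotype and age (black line). Open points at P1 are libraries under 1000000 effective reads, and open points of Kdm6b-cKO at P30 are the 3 libraries with more than 1000 FPKM of 45S RNA. At P1 5 of 6 Kdm6b-cKO libraries lie below every WT library for alpha, gamma A and C-type genes, and 2 of 6 for beta genes.

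The members were also summed by group, and these sums of alpha, gamma and C-type genes still depend on how reads of constant exons were divided, since groups of 1 array share those exons. Over the whole alpha array, Pcdhac1 and Pcdhac2 included, the sum at P1 was 51.6 to 73.6 FPKM in WT and 22.1 to 59.8 FPKM in Kdm6b-cKO, a mean log2 difference of -0.80. Over the whole gamma array, its 3 C-type genes included, it was 103.2 to 169 FPKM in WT and 25.6 to 107 FPKM in Kdm6b-cKO, a mean log2 difference of -1.08. In each of these arrays 5 of 6 Kdm6b-cKO libraries were below every WT library. For the 12 alpha genes the sum was 43.3 to 62.9 FPKM in WT (median 50.4) and 17.3 to 50.5 FPKM in Kdm6b-cKO (median 32.3). For the 12 gamma A genes it was 47.7 to 73.3 FPKM (median 57.3) and 10.9 to 49.6 FPKM (median 41.9). In both groups 5 of the 6 Kdm6b-cKO libraries were below the lowest WT library. For the 7 gamma B genes the sum was 12.3 to 38.3 FPKM in WT (median 22.8) and 4.38 to 22.7 FPKM in Kdm6b-cKO (median 12.1). For the 22 beta genes it was 51.4 to 98.7 FPKM (median 79.9) and 32.3 to 118.6 FPKM (median 57.9), with the highest of all 12 libraries a Kdm6b-cKO library. The 5 C-type genes showed the widest gap over all 12 libraries, though not over the deeper ones, with 46.6 to 71.3 FPKM in WT (median 53.8) and 4.78 to 48.5 FPKM in Kdm6b-cKO (median 17.2), and C-type genes made up 17.1 to 25.9% of the summed level of all members in WT and 4.31 to 22.6% in Kdm6b-cKO. The mean log2 difference was -1.77 for C-type, -1.15 for gamma B, -0.81 for gamma A, -0.80 for alpha and -0.36 for beta genes.

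Of the C-type genes, Pcdhgc4 had the largest negative log2 fold change. It encodes the gamma protocadherin on which the survival of cortical interneurons depends. WT libraries lay at 22.0, 27.3, 28.0, 29.5, 30.4 and 40.6 FPKM, and Kdm6b-cKO libraries 0 to 5 at 0, 2.24, 6.69, 17.7, 26.3 and 3.95 FPKM. All Kdm6b-cKO libraries but number 4 were below every WT library. The log2 fold change was -2.94 (SE 0.99, adjusted p = 0.211), and an exact two-sided permutation test of this single gene gave p = 0.00433, where the smallest that 6 against 6 libraries can give is 0.00216. Kdm6b-cKO libraries 2, 3 and 4, which held 2735000 to 2854000 effective reads, gave a median of 17.7 FPKM against 28.0 FPKM in the 5 WT libraries over 1000000 reads, a mean log2 difference of -0.99.

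Pcdhgc3, another gamma C-type gene, had 5.63 to 24.6 FPKM in WT (median 12.9) and 0 to 13.2 FPKM in Kdm6b-cKO (median 4.54), a log2 fold change of -2.23 (SE 0.90, adjusted p = 0.282; exact permutation p = 0.0238). Its groups overlapped, and 3 Kdm6b-cKO libraries were below every WT library. Pcdhac2, the alpha C-type gene of serotonergic axon tiling, had 4.87 to 8.05 FPKM in WT (median 7.00) and 1.40 to 7.62 FPKM in Kdm6b-cKO (median 3.19), with a log2 fold change of -1.10 (SE 0.47, adjusted p = 0.305; exact permutation p = 0.0476). Pcdhac1 went from a median of 4.04 to 0.362 FPKM, though Kdm6b-cKO library 5 had the highest value of all 12 libraries (7.90 FPKM), and Pcdhgc5 from 1.90 to 0.785 FPKM with 3 Kdm6b-cKO libraries at 0. Their log2 fold changes were -2.36 (SE 1.04, adjusted p = 0.314; exact permutation p = 0.0671) and -1.80 (SE 1.05, adjusted p = 0.446; exact permutation p = 0.162). So 4 of 5 C-type genes, all but Pcdhgc5, were lower at an unadjusted p under 0.05 in the limma fit, and none at the adjusted threshold.

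**Figure D3:**
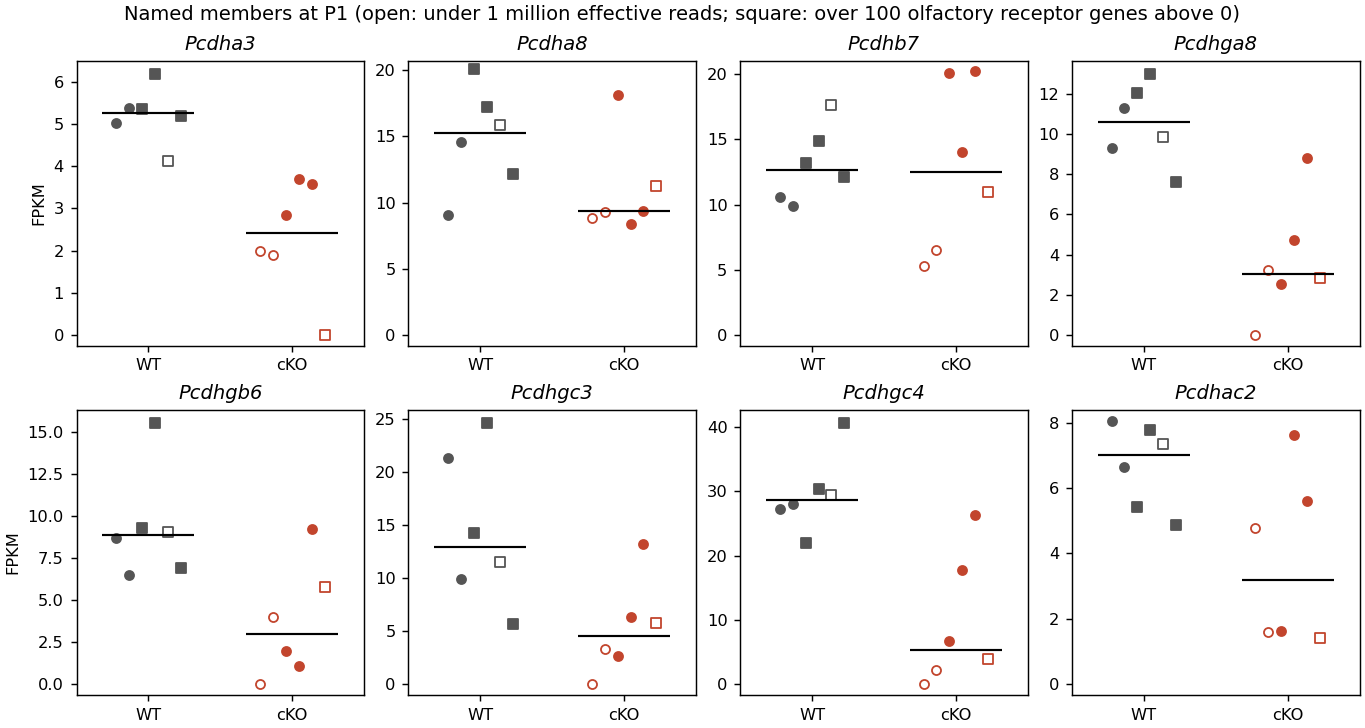
FPKM of 8 named members in each library at P1 (points), with the median of each genotype (black line). Open points are libraries under 1000000 effective reads, and squares are libraries with more than 100 olfactory receptor genes above 0. The genotypes do not overlap for Pcdha3, nearly separate for Pcdhgc4 and Pcdhga8, and overlap widely for Pcdhb7.

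All 12 alpha genes were tested at P1, and all had a negative log2 fold change, from -0.28 (Pcdha6) to -3.27 (Pcdha12), with a median of -1.26. Pcdha3 was the only member of the arrays whose genotypes did not overlap, where 0.683% of all genes were without overlap in this direction. Its WT libraries had 4.13 to 6.19 FPKM (median 5.27) and its Kdm6b-cKO libraries 0, 1.88, 1.99, 2.85, 3.58 and 3.69 FPKM, with the 0 in library 5, the shallowest. The log2 fold change was -1.72 (SE 0.75, adjusted p = 0.315), and the mean difference over the deeper libraries was -0.68. Its exact permutation p was 0.00216, which any gene without overlap gives, so it adds nothing to the lack of overlap. Pcdha8, the most abundant alpha gene, had 9.03 to 20.1 FPKM in WT and 8.37 to 18.1 FPKM in Kdm6b-cKO (medians 15.3 and 9.35; log2 fold change -0.45, SE 0.28, adjusted p = 0.476; exact permutation p = 0.0866). Pcdha11 had 3.02 to 6.51 FPKM in WT and 0 to 8.00 FPKM in Kdm6b-cKO, where 2 libraries were at 0 and library 5 was above every WT library (log2 fold change -2.51, SE 1.01, adjusted p = 0.280; exact permutation p = 0.0628). Pcdha9 had 2.90 to 6.91 and 0.441 to 7.45 FPKM (-0.74, SE 0.57, adjusted p = 0.562; exact permutation p = 0.253).

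The beta genes had the smallest mean difference of the 5 sums. Of 22 genes, 18 were tested, 17 had a negative and 1 (Pcdhb16) a positive log2 fold change, with a median of -0.85, and 1 (Pcdhb22) was lower at an unadjusted p under 0.05. Pcdhb7, the most abundant, had 9.87 to 17.6 FPKM in WT (median 12.6) and 5.28 to 20.3 FPKM in Kdm6b-cKO (median 12.5), a log2 fold change of -0.17 (SE 0.35, adjusted p = 0.843). The Kdm6b-cKO libraries lay on either side of the WT range, with libraries 0 and 1 below it and libraries 2 and 4 above it. Pcdhb21 had 4.37 to 11.6 and 1.16 to 8.28 FPKM (-0.74, SE 0.49, adjusted p = 0.499), and Pcdhb20 had 5.26 to 11.4 and 0.910 to 8.32 FPKM (-0.87, SE 0.51, adjusted p = 0.447), so for each of these 2 neighbouring genes the groups overlapped.

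With the fitted step of 1 read, the counts behind the beta values can be given. All 22 beta genes together held 265 to 660 reads per WT library at P1, and 45, 89, 582, 537, 668 and 76 reads in Kdm6b-cKO libraries 0 to 5. The 45 reads have a 95% exact Poisson interval of 32.8 to 60.2, which covers counting error only. In those 45 reads, 15 (33.3%) were of Pcdhb12, a gene with 1.61 to 2.68 FPKM in WT and 15.4 FPKM in that library. Per 1000000 effective reads, beta genes had 169 to 330 reads in WT and 107 to 398 in Kdm6b-cKO. The highest rate, 398, was in the shallowest library, number 5, and the lowest rates, 107 and 131, in libraries 1 and 0. For Pcdhb7, 1 read was worth 1.57 FPKM in Kdm6b-cKO library 5 and 0.880 FPKM in library 0, against 0.0771 to 0.367 FPKM in the WT libraries, so low values of the shallow libraries rest on single reads.

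All 12 gamma A and 6 of 7 gamma B genes were tested at P1, and all 18 had a negative log2 fold change, with medians of -1.29 and -1.46. Pcdhga8 had 7.63 to 13.0 FPKM in WT (median 10.6) and 0, 2.55, 2.84, 3.24, 4.73 and 8.83 FPKM in Kdm6b-cKO. Only library 4 reached into the WT range (log2 fold change -2.25, SE 0.81, adjusted p = 0.233; exact permutation p = 0.00433). Pcdhga11 had 7.08 to 19.2 and 3.22 to 25.9 FPKM (-0.69, SE 0.47, adjusted p = 0.516), with the highest value in Kdm6b-cKO library 0, and Pcdhga7 had 2.89 to 9.13 and 1.45 to 13.5 FPKM (-0.13, SE 0.53, adjusted p = 0.925). Among gamma B genes, Pcdhgb6 had 6.49 to 15.5 FPKM in WT (median 8.89) and 0 to 9.24 FPKM in Kdm6b-cKO (median 2.98), with 5 of 6 Kdm6b-cKO libraries below every WT library (-2.21, SE 0.85, adjusted p = 0.262; exact permutation p = 0.0130). Pcdhgb7 had 2.74 to 6.45 and 1.10 to 6.61 FPKM (-0.62, SE 0.47, adjusted p = 0.557), and Pcdhgb4 had 0.877 to 7.83 and 0 to 4.71 FPKM (-1.16, SE 0.93, adjusted p = 0.573). In all, 6 members (Pcdha3, Pcdha12, Pcdhga2, Pcdhga8, Pcdhgb6 and Pcdhgc4) had at least 5 of 6 Kdm6b-cKO libraries below every WT library, which is 6 of 53 beside 4.36% of all genes tested.

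The 16 members that were lower at an unadjusted p under 0.05 at P1 were unevenly divided among the groups, beside 7.77% of all genes. They were 5 of 12 alpha genes tested (Pcdha2, Pcdha3, Pcdha10, Pcdha11 and Pcdha12) and 1 of 18 beta genes (Pcdhb22). The others were 4 of 12 gamma A genes (Pcdhga2, Pcdhga4, Pcdhga6 and Pcdhga8), 2 of 6 gamma B genes (Pcdhgb1 and Pcdhgb6) and 4 of 5 C-type genes. All but Pcdhb22 belong to the alpha and gamma arrays, whose single values are uncertain. The largest differences were those of members with Kdm6b-cKO libraries at 0. Pcdha12 had 3.61 to 6.41 FPKM in WT (median 5.11) and 0 to 3.97 FPKM in Kdm6b-cKO (median 0.583), with 3 Kdm6b-cKO libraries at 0 and 5 below every WT library (-3.27, SE 0.99, adjusted p = 0.193; exact permutation p = 0.00866). Pcdhga4 had 1.90 to 4.94 FPKM and 0 to 3.28 FPKM, again with 3 Kdm6b-cKO libraries at 0 (-3.03, SE 0.98, adjusted p = 0.207). A log2 fold change from libraries at 0 depends on the pseudocount and is no bound. The 5 members under the filter at P1 were Pcdhb1, Pcdhb2, Pcdhb10, Pcdhb13 and Pcdhgb2, with WT medians of 0.681 to 1.29 FPKM and Kdm6b-cKO medians of 0 to 0.670 FPKM.

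**Figure D4:**
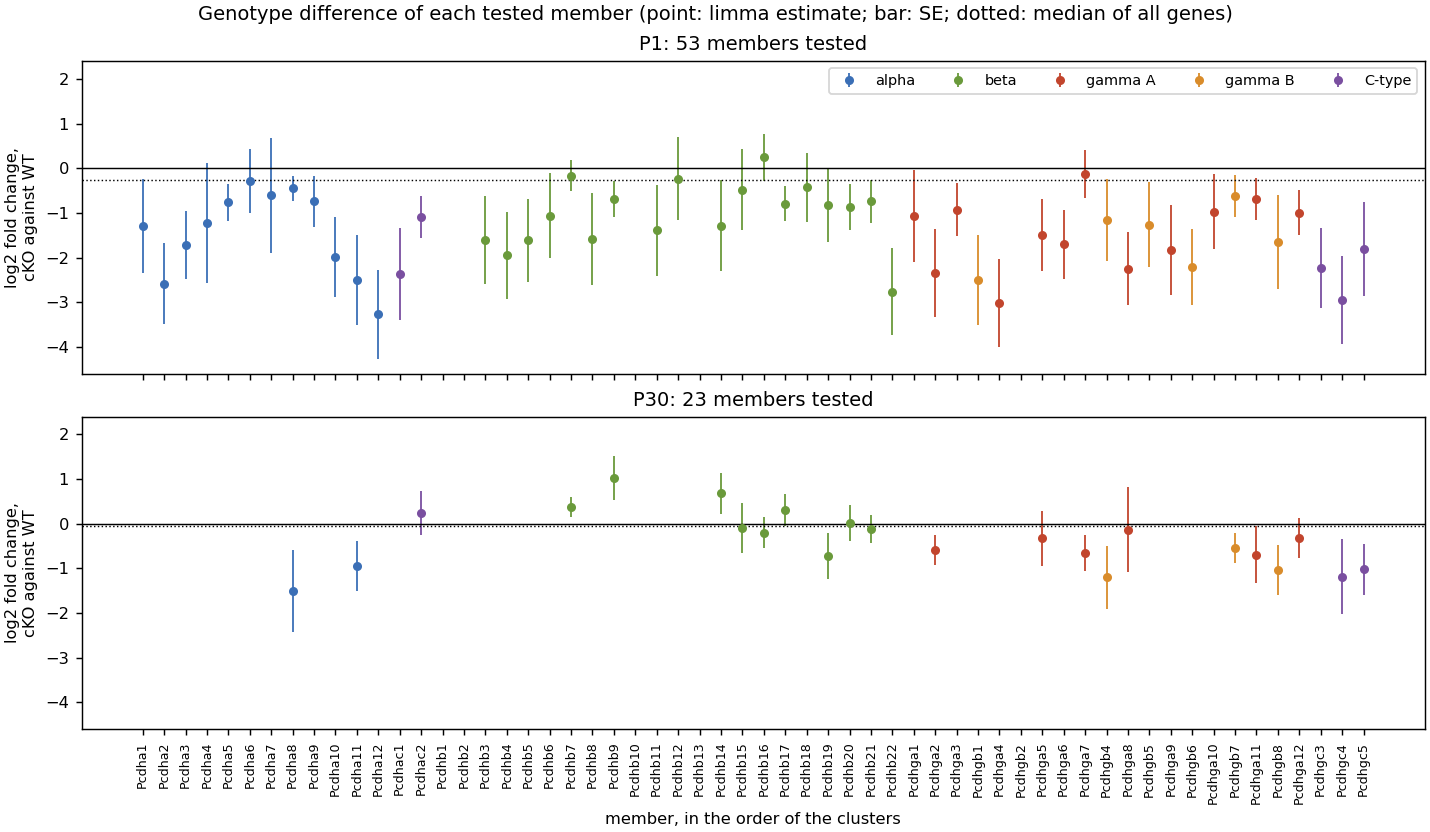
Log2 fold change of Kdm6b-cKO against WT for each tested member in the order of the arrays (points, limma estimates on log2(FPKM + 0.1); bars, SE), at P1 (top, 53 members) and P30 (bottom, 23 members). Members without a point were under the filter, the solid line is 0 and the dotted line the median of all genes, -0.25 at P1 and -0.05 at P30.

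Depth and the olfactory receptor signal differed between the genotypes at P1, so values within them are given beside the pooled ones. In the libraries over 1000000 effective reads (5 WT, 3 Kdm6b-cKO), 49 of 53 members had a negative difference, with a median of -1.13 (all genes -0.18). Of these members, 18 were lower at an unadjusted p under 0.05 where the background over all genes was 12.5%. There the C-type sum was 46.6 to 71.3 FPKM in WT and 11.1 to 48.5 FPKM in Kdm6b-cKO (mean log2 difference -1.11), and gamma A differed by -1.26 and beta by -0.17. The mean log2 difference of gamma B genes was larger still, with sums of 12.3 to 38.3 FPKM in WT and 4.99 to 18.7 FPKM in Kdm6b-cKO. The alpha sum was 43.3 to 62.9 FPKM in WT and 17.3 to 42.3 FPKM in Kdm6b-cKO. Pcdhb7 had a positive difference in these libraries (0.57). Among libraries with few olfactory receptor genes (2 WT, 5 Kdm6b-cKO), 50 of 53 members were lower, with a median of -1.36. Where these receptors were detected (4 WT and 1 Kdm6b-cKO library), 28 of 53 were lower with a median of -0.11, and 5 members (Pcdha3, Pcdha12, Pcdhb22, Pcdhga8 and Pcdhgc4) were called lower in that set against 7.88% of all genes, from a single Kdm6b-cKO library of 191000 reads whose spread was taken to be that of WT. With the receptor signal as a term in the fit, 48 of 53 members were lower, with a median of -0.63 (all genes -0.03), and 8 of them at an unadjusted p under 0.05, where the background over all genes was 6.88%. Under quantile normalization, which moved the median of all genes from -0.25 to -0.11, 44 of 53 were lower with a median of -0.96, and 9 passed the unadjusted p, beside 8.67% of all genes. The part of depth and receptor signal in the P1 differences was not tested.

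At P30 no member was called, and the median difference was closer to 0, though over fewer members than the 53 tested at P1. Without a filter, the medians over all 58 members were -1.28 at P1 and -0.51 at P30 (all genes -0.47 and -0.02). With lower levels, 23 of 58 members passed the filter, 3 of them only through WT and 1 only through Kdm6b-cKO libraries. None was called, where 37 of 13289 genes (0.278%) were. Of the 23, 17 had a negative log2 fold change with a median of -0.33 (all genes -0.05), 0 were lower at an unadjusted p under 0.05 (7.37% of all genes) and 0 higher (5.34%), and 0 were without overlap between genotypes (1.05% of all genes in the lower direction and 0.888% in the higher). Pcdha11 was the only tested member with at least 5 of 6 Kdm6b-cKO libraries below every WT library (3.29% of all genes). By array, 4 of 9 beta genes were lower, with a median of 0.02, while the 2 alpha, 6 gamma A and 3 gamma B genes tested were all lower.

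The 22 beta genes summed to 20.2 to 34.0 FPKM in WT (median 27.0) and 26.9 to 35.8 FPKM in Kdm6b-cKO (median 29.9), a mean log2 difference of 0.20. The alpha genes summed to 13.4 to 16.7 and 7.83 to 15.4 FPKM (-0.48), gamma A to 16.3 to 21.8 and 7.04 to 23.5 FPKM (-0.52), gamma B to 5.72 to 12.3 and 1.87 to 11.3 FPKM (-0.70), and C-type genes to 4.27 to 14.1 and 1.83 to 12.5 FPKM (-0.48). All 5 sums overlapped between genotypes. Beta genes made up at most 40.3% (median 33.8%) of the summed level of the arrays in WT and 37.4 to 58.8% (median 43.3%) in Kdm6b-cKO.

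Pcdha8 had the largest difference at P30, and its difference and that of Pcdhgc4 both came from 3 of the 6 Kdm6b-cKO libraries. Pcdhgb4, whose difference was about as large as that of Pcdhgc4, is described with the gamma genes. Pcdha8 had 4.43, 5.71, 6.03, 7.39, 7.76 and 8.36 FPKM in WT, and 9.94, 8.10, 1.03, 1.77, 0 and 8.53 FPKM in Kdm6b-cKO libraries 0 to 5. Pcdhgc4 had 1.30 to 6.70 FPKM in WT (median 4.77), and 8.53, 4.38, 1.13, 0.187, 0.235 and 6.97 FPKM in Kdm6b-cKO libraries 0 to 5. In each gene, libraries 2, 3 and 4 were below every WT library and libraries 0, 1 and 5 within or above the WT range. The log2 fold changes were -1.51 for Pcdha8 (SE 0.92, adjusted p = 0.531; exact permutation p = 0.186) and -1.19 for Pcdhgc4 (SE 0.84, adjusted p = 0.599; exact permutation p = 0.262).

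**Figure D5:**
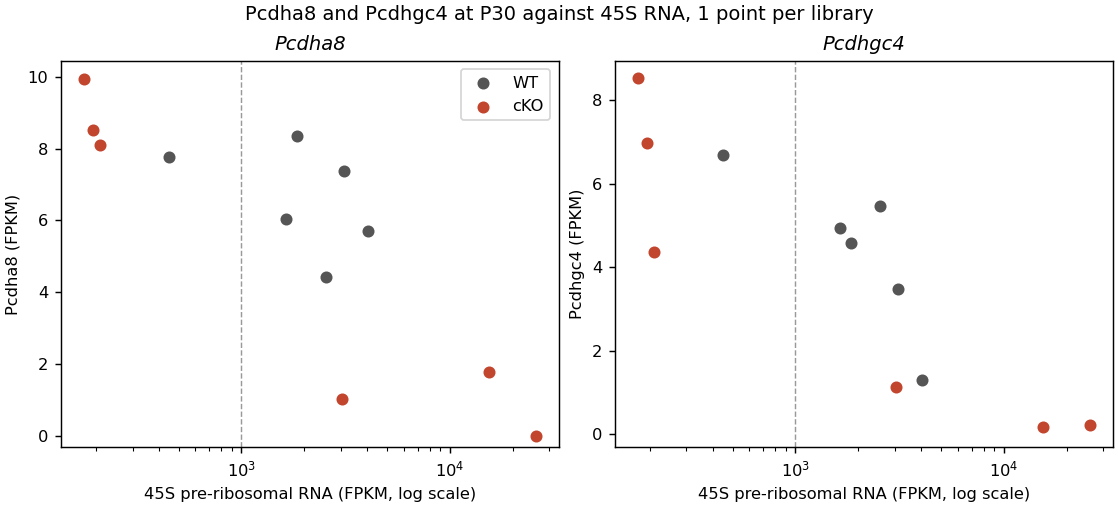
Level of Pcdha8 (left) and Pcdhgc4 (right) in FPKM against 45S pre-ribosomal RNA (FPKM, log scale) in the 12 libraries at P30, with a dashed line at 1000 FPKM of 45S RNA. The 3 Kdm6b-cKO libraries to the right of the line have at most 1.77 FPKM of Pcdha8 and 1.13 FPKM of Pcdhgc4, and the 3 to its left lie at or above 8.10 and 4.38 FPKM.

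Those 3 libraries had 3034, 15420 and 25878 FPKM of 45S RNA and the lowest effective depths at P30 (2663000, 2606000 and 1938000 reads). Among libraries with more than 1000 FPKM of 45S RNA (5 WT, 3 Kdm6b-cKO), Pcdha8 differed by -3.41 (SE 0.84, adjusted p = 0.0406) and Pcdhgc4 by -2.90 (SE 0.63, adjusted p = 0.0293) in the limma fit, both called, as were 3.33% of all genes in the lower direction. Among those with less (1 WT, 3 Kdm6b-cKO), the differences were 0.18 and -0.07. With 45S as a term in the fit, Pcdhgc4 was called (-2.09, SE 0.57, adjusted p = 0.0374; 2.75% of all genes were called lower), and Pcdha8 was not. Between the 3 high and 3 low Kdm6b-cKO libraries, 3 of 23 tested members (13.0%) were lower without overlap and 2 (8.70%) higher, which is a smaller share than the 23.4% and 22.8% of all genes tested. The part of 45S RNA and depth in it was not tested.

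The other named alpha and C-type genes did not pass the test at P30. Pcdha11 had 1.49 to 3.97 FPKM in WT and 0.188 to 5.09 FPKM in Kdm6b-cKO, with the highest value in Kdm6b-cKO library 2 and the other 5 below every WT library (-0.95, SE 0.55, adjusted p = 0.509). Pcdhgc5 had 1.42 to 3.84 and 0.102 to 2.10 FPKM (-1.02, SE 0.57, adjusted p = 0.489), and Pcdhac2, the only C-type gene on the higher side, had 0.414 to 1.78 and 0.395 to 2.09 FPKM (0.24, SE 0.49, adjusted p = 0.875). Pcdhac1 and Pcdhgc3 were under the filter, with medians of 0.497 and 0.245 FPKM and of 0.227 and 0.197 FPKM in WT and Kdm6b-cKO. So Pcdhgc3, among the 3 highest members in WT at P1, was close to 0 in both genotypes at P30.

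The 3 most abundant beta genes overlapped between genotypes at P30. Pcdhb7 had 2.06 to 5.05 FPKM in WT and 3.63 to 5.72 FPKM in Kdm6b-cKO (log2 fold change 0.37, SE 0.23, adjusted p = 0.538). Pcdhb21 had 2.33 to 6.09 and 2.38 to 8.81 FPKM (-0.12, SE 0.32, adjusted p = 0.918), and Pcdhb20 had 1.50 to 3.89 and 0.821 to 4.76 FPKM (0.02, SE 0.40, adjusted p = 0.986). Behind the beta values stood 340 to 814 reads per WT library and 199 to 716 per Kdm6b-cKO library, or 66.4 to 110 and 85.6 to 114 reads per 1000000 effective reads.

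Gamma A and gamma B genes at P30 were on the lower side without passing the test. Pcdhga7 had 2.05 to 5.82 FPKM in WT and 1.29 to 5.75 FPKM in Kdm6b-cKO, of which 4 libraries were below every WT library (-0.65, SE 0.40, adjusted p = 0.537). Pcdhga11 had 2.18 to 4.30 and 0.102 to 5.05 FPKM (-0.69, SE 0.64, adjusted p = 0.702), and Pcdhga8 had 0 to 3.44 and 0 to 2.62 FPKM (-0.14, SE 0.95, adjusted p = 0.969). Pcdhgb7 had 2.01 to 4.83 and 1.03 to 4.06 FPKM (-0.53, SE 0.34, adjusted p = 0.545), and Pcdhgb4 had 0.838 to 3.16 and 0.0949 to 3.38 FPKM (-1.20, SE 0.71, adjusted p = 0.514), with 4 Kdm6b-cKO libraries below the WT range and 1 above it. Pcdhgb6, at 8.89 FPKM in WT at P1, was under the filter at P30 (medians 0.688 and 0.592 FPKM). Of the 35 members under the filter, Pcdhga6 had the smallest exact permutation p, not adjusted for the number of members and chosen after its values were seen, with 0.752 to 1.90 FPKM in WT and 0.103 to 0.807 FPKM in Kdm6b-cKO (exact permutation p = 0.00433 over 6 against 6 libraries), with 5 Kdm6b-cKO libraries below every WT library. Pcdha12, which had the largest difference at P1, had 0.698 to 1.77 and 0 to 1.08 FPKM at P30 (exact permutation p = 0.0108). When limma weighted the libraries by their quality, 5 gamma genes (Pcdhga2, Pcdhga5, Pcdhga7, Pcdhgb4 and Pcdhgb8) were called lower, as were 2.48% of all genes.

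Whether the genotype effect differed between ages was tested over the 24 libraries for the 12644 genes with enough signal at both ages, 23 of them members. No member passed at an adjusted p under 0.05, where 1 gene in all did (0.00791%). At an unadjusted p under 0.05, 2 of 23 members passed beside 13.2% of all genes, Pcdhb9 with an effect that was higher at P30 by 1.71 (SE 0.63, adjusted p = 0.259) and Pcdhb17 with one higher by 1.10 (SE 0.51, adjusted p = 0.356). Pcdhb9 had medians of 8.37 FPKM in WT and 6.48 in Kdm6b-cKO at P1, and of 0.776 and 1.35 FPKM at P30. Pcdhb17 had medians of 5.77 and 3.83 FPKM at P1, and of 1.90 and 3.16 FPKM at P30. In each case the Kdm6b-cKO median was the lower one at P1 and the higher one at P30.

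Genes that take part in the choice of protocadherin promoters were not called at either age. Of 20 genes of CTCF and cohesin looping and of promoter silencing, 20 were tested at P1, with a median log2 fold change of -0.10. At an unadjusted p under 0.05 in the limma fit, 2 were lower and 4 higher, beside 7.77% and 6.7% of all genes. The higher ones were Ctcf, Smc3 (0.91, adjusted p = 0.185), Trim28 (0.64, adjusted p = 0.231) and Smc1a (0.57, adjusted p = 0.318). The lower ones were Wiz and Uhrf1 (-1.21, adjusted p = 0.282). At P30, 18 were tested, with 2 lower (7.37% of all genes), 0 higher (5.34%) and a median of -0.05. Ctcf, which bridges enhancer and promoter at these arrays, had 20.1 to 30.2 FPKM in WT and 22.2 to 53.1 FPKM in Kdm6b-cKO at P1 (0.61, SE 0.23, adjusted p = 0.260). Wiz, a zinc finger partner of CTCF and cohesin, was on the lower side at both ages, at 18.7 to 24.4 and 6.16 to 20.4 FPKM at P1 (-0.78, SE 0.30, adjusted p = 0.256) and 5.53 to 12.6 and 4.51 to 7.82 FPKM at P30 (-0.56, SE 0.21, adjusted p = 0.295). Of 19 genes of protocadherin signalling and shedding, 18 were tested at each age, none was called, and the medians were 0.02 and -0.02. Cyfip2, a subunit of the WAVE actin-regulatory complex, was the only one without overlap between genotypes, at P1, where 0.683% of all genes were in this direction. It had 24.9 to 32.5 FPKM in WT and 15.8 to 22.6 FPKM in Kdm6b-cKO (-0.55, SE 0.20, adjusted p = 0.233).

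The non-clustered protocadherins, which lie outside the arrays and have no shared constant exons with them, had a median difference close to that of all genes at P1. Of 12, 9 had a negative and 3 a positive log2 fold change, with a median of -0.20, and none was called. At an unadjusted p under 0.05 in the limma fit, 3 of the 12 were lower and 1 higher. The background over all genes was 7.77% lower and 6.7% higher. At P30, 2 of 10 were lower and 8 higher, with a median of 0.33. Pcdh8 (1.28 to 2.36 FPKM in WT, 2.55 to 5.42 FPKM in Kdm6b-cKO; 0.88, SE 0.25, adjusted p = 0.160) and Pcdh15 (7.10 to 10.4 and 11.4 to 14.8 FPKM; 0.58, SE 0.15, adjusted p = 0.134) were higher without overlap at P30, where 0.888% of all genes were. The difference between clustered and non-clustered genes was not tested.

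Of 13 other genes in and around the locus, 5 were lower and 8 higher at P1, with a median of 0.18, and none was called. Taf7, a subunit of the general transcription factor TFIID that lies between the beta and gamma arrays, was higher without overlap, with 8.89 to 12.6 FPKM in WT and 14.3 to 23.4 FPKM in Kdm6b-cKO (0.87, SE 0.23, adjusted p = 0.180), where 0.603% of all genes were without overlap in this direction. At P30 it stood on the other side of 0 (-0.54, SE 0.26, adjusted p = 0.411). Gm37013, a read-through model that begins in the alpha array and ends with the gamma constant exons, had 0.870 to 5.27 FPKM in WT and 0 to 5.27 FPKM in Kdm6b-cKO at P1, with a Kdm6b-cKO median of 0 (-3.07, SE 1.13, adjusted p = 0.241).

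Markers of cell types that the sorted nuclei could hold differed in level between the genotypes, and in bulk nuclei fewer cells of a type and less RNA per nucleus cannot be told apart. The study names glutamatergic neurons, astrocytes and oligodendrocytes as progeny of Emx1 progenitors. GABAergic, microglial and vessel markers are of cells outside those named, and their signal at either age may come from nuclei outside the lineage, which was not tested. At P1, the 12 glutamatergic markers summed to 677 to 1053 FPKM in WT and 677 to 1182 FPKM in Kdm6b-cKO, the 14 GABAergic markers to 682 to 1467 and 920 to 2816 FPKM, and the 10 astrocyte markers to 192 to 299 and 107 to 359 FPKM. Markers of oligodendrocyte precursors (42.2 to 62.3 and 23.2 to 42.8 FPKM), of myelin (24.6 to 46.4 and 16.5 to 47.8 FPKM), of microglia (72.3 to 165 and 30.03 to 162 FPKM) and of vessels (134 to 257 and 68.7 to 253 FPKM) were at lower sums. In the fit at P1, 7 of 7 precursor markers tested had a negative log2 fold change (median -1.41), as had 8 of 10 astrocyte, 8 of 9 microglial, 8 of 12 glutamatergic (median -0.28) and 8 of 13 GABAergic markers (median -0.03), beside 63.2% of all genes tested, and none was called. Gfap and Sox10 were lower without overlap at P1, where 0.683% of all genes were. The part of these cell types in the P1 differences of the arrays was not tested.

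At P30, 10 of 10 GABAergic markers tested had a positive log2 fold change, with a median of 1.56, where 54.8% of all genes tested had a negative one. At an unadjusted p under 0.05 in the limma fit, 7 of these markers were higher, beside 5.34% of all genes, and none was called. The GABAergic sum was 42.5 to 535 FPKM in WT and 211 to 386 FPKM in Kdm6b-cKO. The glutamatergic sum was 708 to 1127 and 459 to 999 FPKM, with 9 of 12 markers lower. Myelin markers summed to 272 to 533 and 142 to 213 FPKM with 12 of 12 lower and 2 called, precursor markers to 18.7 to 29.95 and 12.1 to 24.2 FPKM, astrocyte markers to 109 to 171 and 107 to 173 FPKM, microglial markers to 12.4 to 45.7 and 20.0 to 44.9 FPKM, and vessel markers to 4.10 to 21.2 and 9.01 to 27.7 FPKM. The called markers were Mbp (-1.27, adjusted p = 0.0204), Mag (-1.59, adjusted p = 0.00538) and, of the precursor list, Sox10 (-1.46, adjusted p = 0.0204), all lower without overlap, as were Nrgn, Mog and Opalin. Over all genes tested at P30, 0.278% were called and 1.05% were lower without overlap. Every marker listed was above 0 in at least 1 library of each age. Neurons of either transmitter express clustered protocadherins, and the part of these shifts in the P30 values was not tested.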

How the data were processed

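Nuclear RNA of sorted cortical nuclei was sequenced in 6 libraries for each genotype and age. Per the study's methods, the authors aligned reads to mm9 with HISAT2 and computed FPKM with Cuffdiff (versions not given in the sources used here). The deposited FPKM tables were used. Tables of the authors' own comparison hold folds, p and q values, and only their gene intervals were used. The number of per-library columns left out was 0.

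For each age, limma 3.58.1 (R 4.3.3; lmFit, then eBayes with trend; tests two-sided) compared Kdm6b-cKO with WT. Values entered as log2(FPKM + 0.1), genes whose level averaged under 1 FPKM across the age's 12 libraries were left out, and p-values were adjusted by Benjamini and Hochberg's method across every remaining gene. A gene counted as called when its adjusted p was under 0.05 and its change exceeded 2-fold. Exact permutation tests of single genes used all 924 assignments of 12 libraries. Their p-values were not adjusted for the number of genes and are printed mostly for members with larger differences. The functions were tested on simulated data. Effective depth came from the most common step among genes with a single annotated transcript, with fragments of 200 bases assumed. Beta genes decided how many reads that step stood for. p-values measure the spread between libraries, as nothing in the labels says whether each came from a separate animal.

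Described by name are the C-type genes, the 3 members of highest mean level over 24 libraries in each other group, every called member and every tested member without overlap between genotypes. Further members are named where a small count or a lead value concerns them, and these were chosen after their values were seen. The members and the 11 lists of other genes were chosen with earlier results of these data known. Alternatives were pseudocounts of 1 and 0.01, no filter or 5 FPKM as the lowest mean, quantile and median-of-ratios scaling, no trend, robust fitting, array and depth weights, a term for receptor signal or 45S RNA, and leaving out each library. That term split libraries at 100 olfactory receptor genes above 0 (P1) or at 1000 FPKM of 45S RNA (P30). The labels name no batch, so both splits rest on the expression values themselves. Added after seeing the data were the P1 libraries over 1000000 effective reads, the libraries on each side of these splits alone, and quantile scaling with depth weights. Other steps used Python 3.11.15 with pandas 2.3.3 and numpy 2.4.6, figures matplotlib 3.10.9 and rank correlations scipy 1.17.1.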

Additional observations from a re-analysis of the deposited data

Results flagged for a closer look

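In 92 sets of 6 libraries (18 named members and 5 sums in 4 groups), 9 had 1 library set apart from the other 5 by a gap that, as a share of the whole range, was above Dixon's 95% critical value, which chance alone passes in about 1 of 20 sets. At P1 these were Pcdhgb6 in WT library 3 (15.5 FPKM), and in Kdm6b-cKO Pcdhac1 in library 5 (7.90 FPKM), Pcdha8 in library 2 (18.1 FPKM) and Pcdhga11 in library 0 (25.9 FPKM). At P30 they were Pcdhgc5 in WT library 0 (3.84 FPKM), Pcdha11 and Pcdhgb4 in WT library 1 (3.97 and 3.16 FPKM), Pcdhgc3 in Kdm6b-cKO library 4 (1.65 FPKM) and Pcdha11 in Kdm6b-cKO library 2 (5.09 FPKM). In all 9 the library set apart was the highest of its group. Kdm6b-cKO libraries 0 and 5 at P1 held 343000 and 191000 effective reads, and Kdm6b-cKO libraries 2 and 4 at P30 held 2663000 and 1938000.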

How the results depend on the processing

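No paired analysis was possible because the libraries are numbered 0 to 5 in the tables and 1 to 6 in the labels, so no number ties a WT to a Kdm6b-cKO library. At P1, 4 of 12 libraries held under 1000000 effective reads, and single alpha and gamma values depend on how reads of shared exons were divided. Of all alternatives, 0 members were called at P1 except with the libraries of high olfactory receptor signal alone (5), and 0 at P30 except with array weights (5), 45S as a term (1) and the libraries of high 45S RNA alone (2). No member's effect passed the test of a difference between ages under any alternative run. All genes called at P1 numbered 0, against 1 without the trend, 403 with depth weights, 1 in the libraries over 1000000 reads, 242 with quantile normalization and depth weights, 21 in the libraries of low and 1659 in those of high receptor signal. Leaving out 1 library gave 0 to 51 genes at P1, with 51 without Kdm6b-cKO library 4 and 2 without WT library 4. At P30, 37 genes were called, against 530 with array weights, 62 with depth weights, 550 with 45S as a term, 78 with quantile normalization and depth weights, and 759 in the libraries of high 45S RNA. Leaving out 1 library gave 2 to 43, with 2 without WT library 2, 3 or 5, 5 without WT library 4, 22 without WT library 1, and 8, 10 and 21 without Kdm6b-cKO library 0, 1 or 5.

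Sums of the arrays at P1 with the libraries of high receptor signal alone differed by -0.14 (alpha), 0.44 (beta) and -0.22 (gamma B). At P30 alpha differed by -0.86 at high and -0.11 at low 45S RNA, and beta by -0.054 at low 45S RNA. Log2 fold changes that turned their direction at P1 were those of Pcdhac1 (1.37), Pcdhgc5 (0.94) and Pcdha11 (0.74) at high receptor signal, of Pcdhga7 (0.12) and Pcdhb7 (0.17) at low receptor signal, and of Pcdhb7 with array weights (0.23), depth weights (0.40), quantile normalization and depth weights (0.40) and the libraries over 1000000 reads (0.57). Without 1 library, Pcdhb7 lay between -0.33 and 0.052, and Pcdhga7 between -0.38 and 0.24. At P30 they were Pcdhgc4 (0.27), Pcdha8 (0.0811) and Pcdhga8 (0.45) with array weights, Pcdhga8 with depth weights (0.13) and with quantile normalization too (0.11), Pcdhac2 (-0.028) and Pcdhb20 (-0.21) with 45S as a term, Pcdhb21 (0.11) and Pcdhb20 (-0.45) at high 45S RNA, and Pcdhac2 (-0.18) and Pcdha8 (0.18) at low 45S RNA. Without 1 library at P30, Pcdhb20 lay between -0.16 and 0.38, Pcdhb21 between -0.32 and 0.045, and Pcdhga8 between -0.80 and 0.51. Over the named members, 405 of 433 values under the other alternatives and 359 of 372 with 1 library left out kept their direction and their side of the threshold. The cause of these changes was not tested.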
